A study of Oryza sativa and Arabidopsis thaliana with 28 samples.

Results

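The sites described here are cytosines at which C-to-T changes were listed in Arabidopsis RNA. They lie in the opening 20% of a plus-strand gene, counted from its annotated start. A site was a member when its distance from the gene's start was less than 0.2 of the distance from start to end. The 18S rRNA genes AT3G41768 and AT2G01010 were left out. The rule found 7710 sites in 1432 genes, among 66875 listed Arabidopsis sites, of which 61748 lie on chromosomes 1 to 5 and 52465 inside a plus-strand gene. The rest of the same genes held 31516 further sites, and these are the comparison throughout. At the border, the 664 sites between 19% and 20% of the gene had a median rate of 1.19%, and the 648 between 20% and 21% had 1.17%. The table gives no strand for a site, and 302 members also lie in a minus-strand gene. Gene spans run over introns and untranslated regions, so whether a site is exonic or coding was not determined.

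N4-acetylcytidine (ac4C) is a cytidine carrying an acetyl group, placed on RNA by acetyltransferases of the NAT10 and Kre33 type. It is an established modification of rRNA and of some tRNAs. Its extent in mRNA, and whether it gathers near the 5′ end of transcripts, where translation begins, has been studied with antibodies and with chemical sequencing. In ac4C-seq, acetylcytidine is reduced with sodium cyanoborohydride, and reverse transcriptase then pairs part of the reduced bases as if they were U, so that a T appears where the genome has a C.

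Both site libraries came from Col-0 (wild-type) seedlings of Arabidopsis, aged 10 days, and from mRNA purified on oligo-dT beads. One was treated for 20 min with NaCNBH3 at 100 mM in acid, and the control received the acidified water alone for as long. With 1 treated and 1 control library, every test below compares these libraries, not the conditions, and its error covers counting only. The same series holds 2 Arabidopsis mRNA libraries and 2 libraries of mRNA bound to ribosomes, which were used to describe the genes.

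The T rate below is the share of T among all reads at a site. Median depth at the members was 626 treated reads and 2415 control reads, against 802 and 2987 in the rest of the same genes. Every listed Arabidopsis site had at least 5 T reads in the treated library, so the lowest rate that can be listed falls as depth rises. At 200 reads that floor is 2.5%, and at 1600 reads it is 0.3125%. How far this floor sets a given value was not tested, and each comparison is therefore also given for sites with at least 1000 treated reads, called deep sites here.

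Members close to the 18S genes stood apart from most others, in location and in depth. On chromosome 2, the median of treated reads per site fell from 32589 between 100 and 200 kb to 26951 in the next 100 kb, 13920 between 400 and 500 kb, 5527 between 700 and 800 kb and 326 between 1100 and 1200 kb. Over the same bins the median T rate was 0.0181%, 0.0289%, 0.0430%, 0.130% and 2.24%. Since each listed site has at least 5 T reads, the lowest rate that can be listed also rises as depth falls. In the bin from 100 to 200 kb, the member in AT2G01270 had 5 T reads of 31991 (0.0156%). The part of this floor in the rise of the rate was not tested. Levels of mRNA are given in RPKM (reads per kilobase of gene, scaled to sequencing depth). In the first mRNA library the median over all genes starting in these bins was 3.84, 3.43, 1.66, 0.672 and 6.64 RPKM. Those medians include genes without a listed site. Whether depth followed the position on the chromosome or the mRNA level was not tested. The first 1 Mb of chromosome 2 held 101 members in 14 genes, 28 of them called higher in the treated library, with a median rate of 0.0635% at 20433 reads. From 13 to 15 Mb of chromosome 3, 34 members in 2 genes had a median rate of 0.138% at 15107 reads. In these 2 stretches the treated library was deeper than the control (median ratio 3.41 on chromosome 2 and 1.44 on chromosome 3), against a median ratio of 0.256 at the other members. What placed these reads there was not tested. Which reads the deposited depth counts at a position is not given, so the rates in these stretches may have denominators of another kind than elsewhere. The 2 stretches hold 135 members, and the results that rest on them are given with and without them. Outside the stretches, 20 of 2368 deep members were not called, and the lowest rate was 0.0357%.

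**Figure D1:**
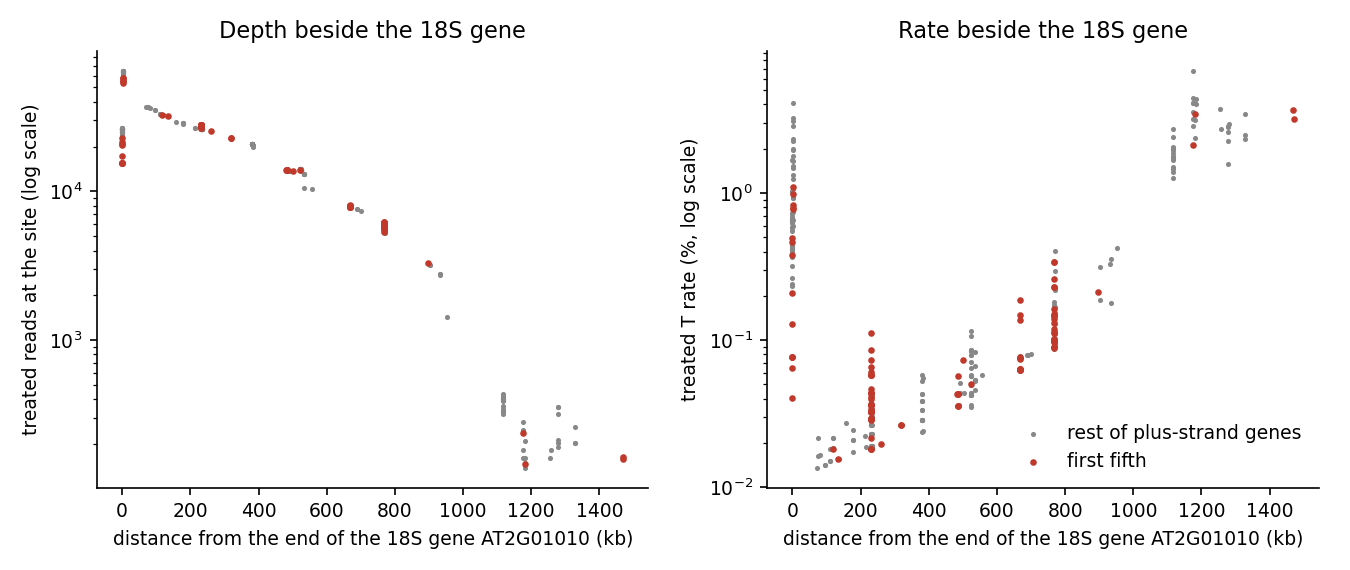
Treated reads per site (left, log scale) and treated T rate (right, log scale) for sites in plus-strand genes of the first 1.5 Mb of chromosome 2, by distance in kb from the end of the 18S gene AT2G01010. Red points are opening-20% sites and grey points the rest of plus-strand genes. From about 70 kb to 1 Mb depth falls with distance in both kinds, and the rate rises, as does the lowest rate that can be listed. The genes AT2G01020 and AT2G01021, within 2 kb of the 18S gene, have rates of 0.0405% to 4.12% at 15502 to 64806 reads and lie off these lines.

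Nearly all members had a higher T rate in the treated library. By a two-sided Fisher's exact test with Benjamini-Hochberg adjustment over all 66873 tested Arabidopsis sites, 7486 of 7710 members were called higher, which is 97.1%, against 94.3% of all sites and 98.1% in the rest of the same genes. A further 7 members were lower in the treated library (against 0.474% of all sites), and 217 passed in neither direction. Without the stretches beside the 18S genes 98.1% of members and 98.3% of the rest were called higher. The share of called members was 90.0% on chromosome 2, which holds 1 of the stretches, and 97.5% to 99.0% on chromosomes 1, 3, 4 and 5. No T read was seen in the control at 4564 members (59.2%), and the control rate reached 1% at 52 members. Since a listed site needed T reads in the treated library and not in the control, the called share is read here only against that of the comparison sites, and the part of the listing in it was not tested.

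Members lay close together. The median distance to the next member of the same gene was 5 bases, and 862 of 6281 neighbouring pairs (13.7%) were adjacent bases. The median gene had 2 members, 659 genes had 1, and the 94 genes with 20 or more held 45.9% of all members. The gene with most had 127. Members within 1 gene share transcripts and reads and are not independent.

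Median rates in the opening 20% were slightly above those in the rest of the genes, and the order turned once depth was high. Over all members the median treated rate was 1.29%, with quartiles of 0.881% and 2.17%, against 1.13% (0.822% and 1.67%) in the rest. At the 2503 deep members it was 0.835%, against 0.863% at 12904 deep sites of the rest. Without the stretches beside 18S, the medians were 1.31% against 1.14% over all sites and 0.859% against 0.870% at deep ones, so the deep difference was -0.0106 points. The deep rates were narrow in both portions, with quartiles of 0.659% and 1.09% in the opening 20% and 0.668% and 1.1% in the rest outside those stretches. In the last 20% of plus-strand genes, with the stretches, the median was 1.39% over all sites and 0.835% at 1305 deep ones.

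Within classes of similar depth, each spanning a 2-fold range from 100 to 3200 reads, the medians of the portions were close. In the wider class from 10 to 100 reads the median was 7.89% at 178 members and 7.23% at 149 sites of the rest. Between 100 and 200 treated reads the median was 3.98% in the opening 20% and 3.72% in the rest, at median depths of 152 and 165 reads, and between 400 and 800 reads it was 1.2% in both. Between 1600 and 3200 reads it was 0.843% against 0.854%, and from 3200 reads upwards, leaving out the stretches, 0.893% at 423 members against 0.894%. The opening 20% held more shallow sites: 10.6% of members had between 100 and 200 reads, against 4.68% of the rest. It also held more sites at the edge of listing, with 5 or 6 treated T reads at 40.7% of members against 32.4%. Sites called higher with a rate of 5% or more numbered 358 among members (4.64%) and 481 in the rest (1.53%). At deep sites they numbered 0 of the 2503 members and 14 of 12904 sites in the rest (0.108%), a difference that was not tested. In the last 20% of plus-strand genes they numbered 282 (5.42%), with 3 at deep sites, and 44.9% of sites there had 5 or 6 treated T reads. The highest rate at a deep member was 3.29%.

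**Figure D2:**
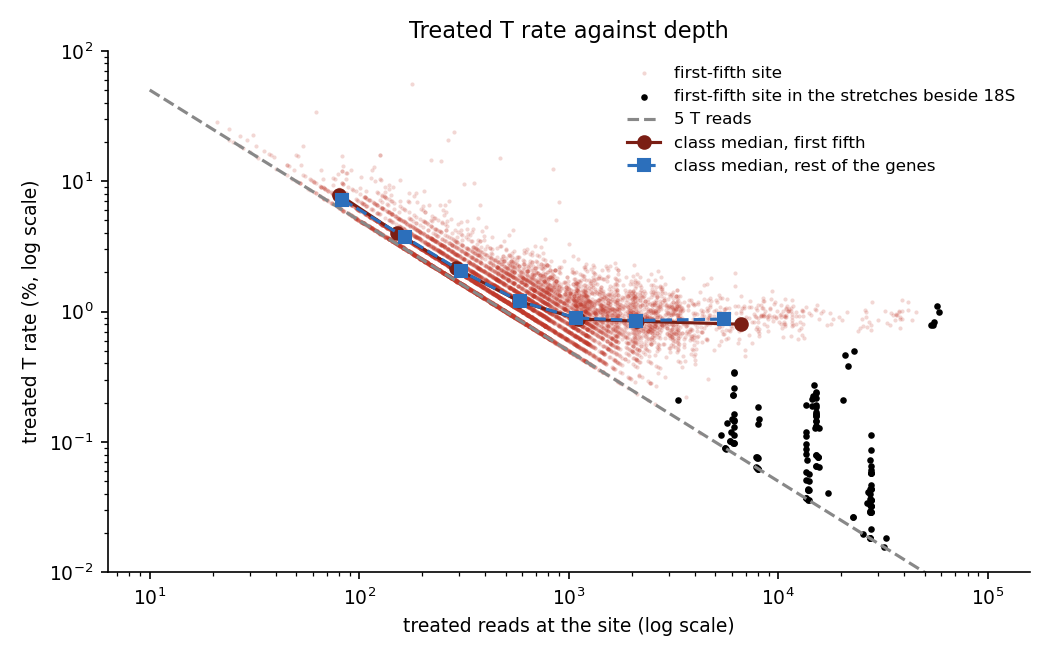
Treated T rate of each opening-20% site against its treated reads (both axes log scale), with the dashed line at 5 T reads. Connected points are class medians at the class's median depth, for the opening 20% (circles) and the rest of the same genes (squares); the lines nearly coincide, and black points, the members beside the 18S genes, lie below the level of about 0.9% reached by the other deep sites except at the greatest depth.

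Along the gene, rate and depth moved in opposite directions. In 10 equal bins along plus-strand genes, bin 1 held 1757 tested sites, fewer than every other bin except bin 10 with 719, and had the highest median rate, 1.65%, at the lowest median depth, 430 treated reads. Bin 2 had 5958 sites at 1.22% and 684 reads. From bin 3 to bin 8 the medians lay between 1.18% and 1.23%, at 678 to 738 reads, and in bin 10 the rate was 1.52% at 456 reads. At deep sites bin 1 had the lowest median instead, 0.773% over 403 sites in 41 genes, and the other 9 bins lay between 0.831% and 0.869%. Without the stretches beside 18S, bin 1 was again highest over all sites, at 1.68%, and lowest at deep sites, at 0.811% over 359 sites in 30 genes, with the others between 0.846% and 0.892%. The part of depth in the profile over all sites was not tested beyond this split.

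**Figure D3:**
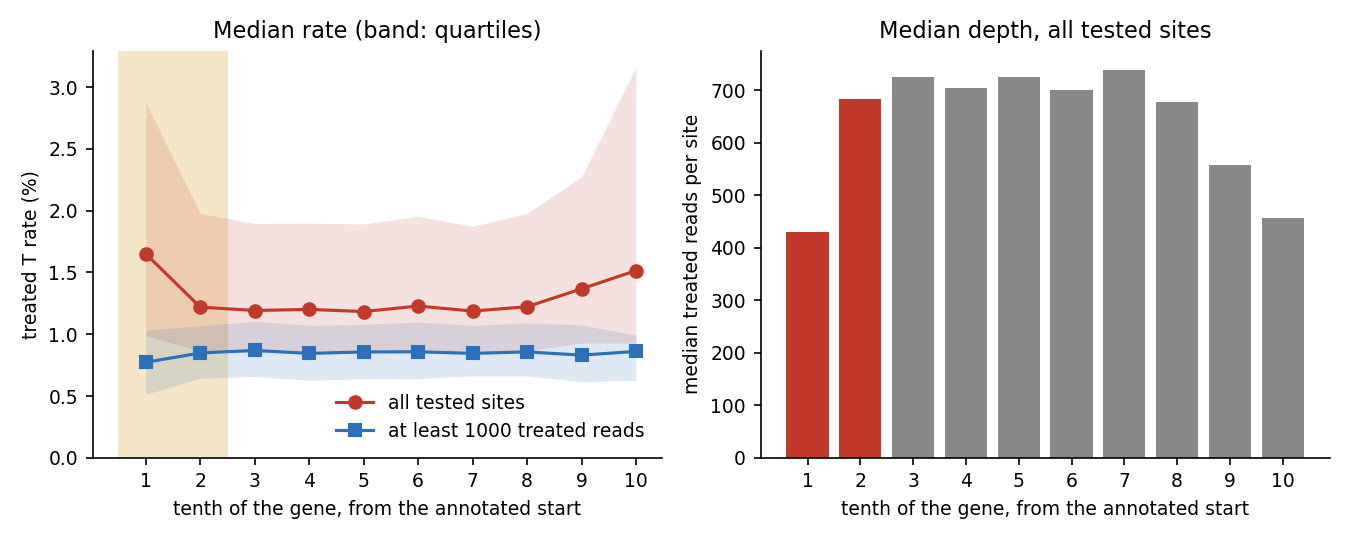
Left, median treated T rate in 10 equal bins along the gene with its quartile band, for all tested sites and for sites with at least 1000 treated reads; the shaded bins are the opening 20%. Right, median treated reads per site by bin; bin 1, at 430 reads, is the shallowest and has the highest rate over all sites, 1.65%, but not among deep sites, 0.773%.

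Counted in bases, members began at base 1 of the gene span and reached base 2070, with a median at base 285. Sites were sparse at the very start, with 64 in the first 50 bases and 181 in the next 50, against 1505 in the 100 bases after base 100 and 2476 in the 100 after base 200. Of the 64, 36 lie in the stretches beside 18S, and the other 28 had a median rate of 1.77% at 330 reads, with 57.1% called. Of those 28, 4 were deep, with a median rate of 0.0872%. At deep members outside the stretches the median was 1.02% between bases 50 and 100, 0.816% up to base 200, 0.861% up to base 300, 0.887% up to base 500 and 0.824% up to base 1000, on 37, 513, 912, 741 and 161 sites. With the stretches the value between bases 50 and 100 was 0.660% on 51 sites, so its place in this order rests on the stretches, and no steady change with distance was seen.

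The sites with the largest gain over control at 50 or more reads were mostly shallow and in genes with few members. In 10 of the 12, the control had no T read. The largest was in AT2G14080 (chromosome 2, base 5925773 of TAIR10, 13.7% along the gene), where 10 of 54 treated reads and 0 of 108 control reads carried T. The treated rate was 18.5% (95% exact interval 9.25% to 31.4%), and 0 of 108 allows up to 2.78%. In AT5G39800, base 15935693 of chromosome 5, 20 of 125 treated reads carried T (16.0%, interval 10.1% to 23.6%) and 0 of 371 control reads, which allows up to 0.809%. These intervals do not overlap, but both sites were picked as extremes of 7710. Of the 12 genes, 7 had no listed site beyond the opening 20%.

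The other 8 sites without a control T read had treated rates from 11.6% in AT5G24450 to 16.0% in AT1G59890, on 50 to 117 treated reads. AT1G59890 had 8 T reads of 50. AT5G23150 had the most reads of the 8, with 15 T reads of 117 (12.8%, interval 7.36% to 20.3%). AT4G08350, AT4G16670 and AT5G50580 lay close to each other, with 12.12%, 12.09% and 12.05%. AT4G08390 and AT2G25740 had 15.7% and 13.1%.

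In the 2 remaining genes the control itself carried T. At base 790193 of chromosome 1, in AT1G03230, the treated rate was 20.7% (55 of 266 reads) and the control rate 6.40% (16 of 250). At base 3567487 of chromosome 5, in AT5G11200, it was 23.9% (68 of 284) against 12.3% (164 of 1329), while the median of that gene's 8 members was 1.90%. The highest rate of any member, 55.6% in AT2G22970 (99 of 178 reads), went with 78.3% in the control (382 of 488), and the site was called lower (adjusted p = 6.76e-08, Fisher's exact test). At these sites T was read without the reduction, and its origin was not tested.

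**Figure D4:**
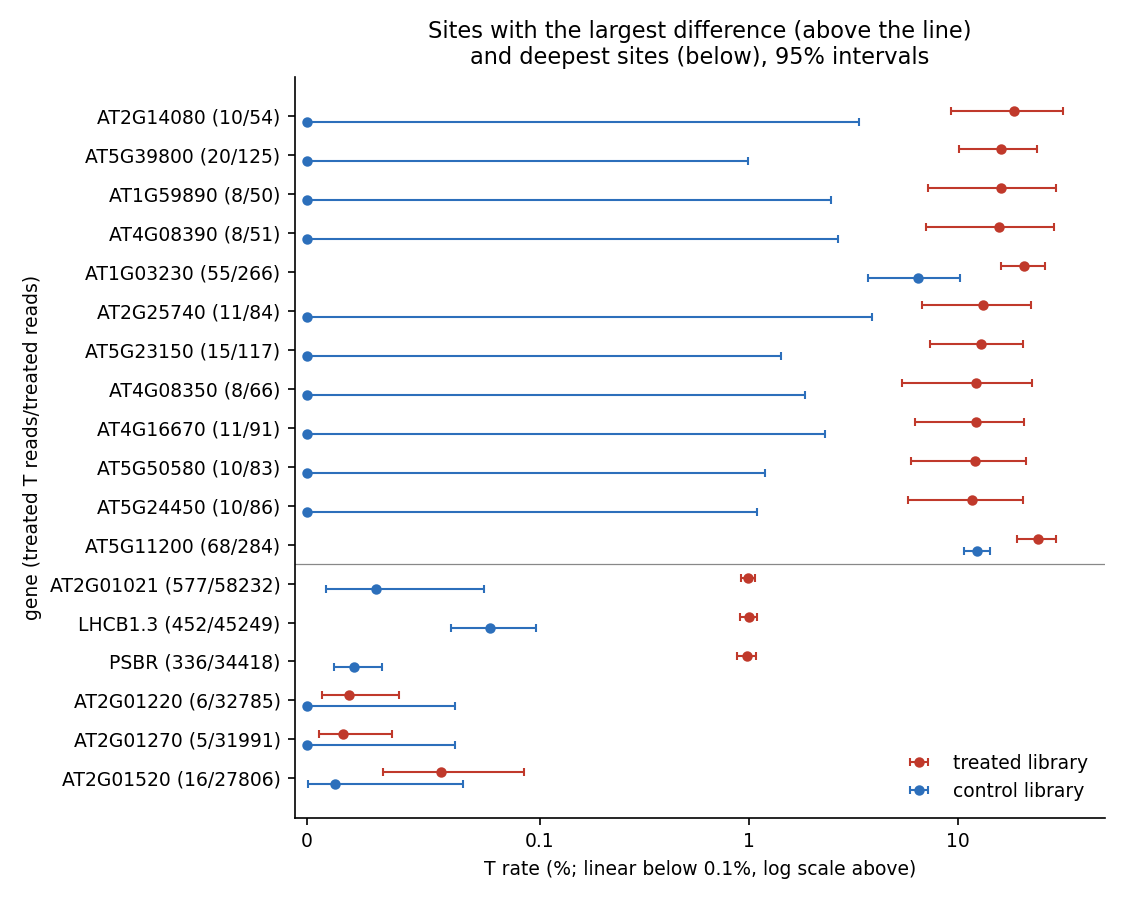
T rate in the treated and the control library with 95% exact intervals, for the 12 opening-20% sites with the largest difference (above the line) and the 6 deepest, 1 per gene (below); the axis is linear below 0.1% and logarithmic above. The 12 sites reach 11.6% to 23.9% on at most 284 reads, while LHCB1.3 and PSBR stand near 1% on 45249 and 34418 reads.

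The deepest members fell into 2 kinds. In LHCB1.3, which encodes a light-harvesting chlorophyll a/b protein of photosystem II, the deepest site had T in 452 of 45249 treated reads, 0.999% (interval 0.909% to 1.1%), against 76 of 96469 control reads, 0.0788%. In PSBR, which encodes a small photosystem II protein, it was 336 of 34418, 0.976%, against 17 of 84068, 0.0202%. Both were called, at adjusted p of 2.1e-143 and 4.97e-154 (Fisher's exact test). The intervals of the treated rates overlap, and the difference between these rates was not tested. AT2G01021, in the stretch on chromosome 2, had a like rate, 577 of 58232 (0.991%) against 4 of 13448. It spans 102 bases, and whether it is a gene of mRNA was not determined.

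The other 3 deepest sites, also in that stretch and subject to the limit on its depth given above, were not called. AT2G01220 had 6 T reads of 32785 (0.0183%), AT2G01270 had 5 of 31991 and AT2G01520 had 16 of 27806 (0.0575%). The mRNA levels of AT2G01220, AT2G01270 and AT2G01520 were 5.04, 5.62 and 122.3 RPKM in the first mRNA library, against 8441 RPKM for LHCB1.3, whose deepest site had 45249 reads. All 37 members of AT2G01520 lie in that stretch.

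Gene by gene, pooled rates of the opening 20% and the rest differed in few genes, and the balance of higher and lower calls was not the same among genes with deep sites. Reads were summed over sites in each portion and compared by a two-sided Fisher's exact test with adjustment over the 1161 genes that had both. In the treated library 46 genes were called higher in the opening 20%, which is 3.96%, and 28 lower, which is 2.41%. The median difference was 0.138 points upwards, with 703 of 1161 genes (60.6%) above. For the last 20% set against the rest of its genes it was 0.129 points upwards, with 550 of 948 genes (58.0%) above. Median depth per site was lower in the opening 20% in 43 of the 46 genes called higher, against 736 of all 1161 (63.4%) and 9 of the 28 called lower. The pooling treats reads at neighbouring sites as independent, so these p-values are too small by an unknown amount.

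At deep sites alone 118 genes could be tested, with 4 called higher (3.39%) and 18 called lower (15.3%), and a median difference of -0.0163 points. Without the stretches beside 18S, 3 of 104 were higher and 13 lower. In the control library the same 118 genes gave 3 higher (2.54%) and 17 lower (14.4%). Without the stretches the control gave 3 higher and 15 lower of 104. The deep balance was thus alike in both libraries. Over all sites without those stretches, 44 of 1147 genes were higher and 24 lower in the treated library. Of the 46 genes called higher, 5 had deep sites in both portions and 4 of these were called higher there too, and 12 of 17 lower genes with such sites were called lower again. The deep test thus covers a smaller set of genes. In genes open to both tests most calls kept their direction, but the deep sums are part of the same reads. In AT2G01021, AT2G01020, AT3G06355 and AT3G41979 every site was deep, so both tests used the same counts. The repeated calls are therefore no separate evidence.

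Over all sites, genes with a called difference were about as common for other portions. With each later portion of 20% set against the rest of its genes in turn, 7.03%, 5.69%, 7.24% and 7.7% of genes were called, against 6.37% for the opening one. At deep sites the opening 20% was lower in 15.3% and higher in 3.39% of its genes. The later portions were lower in 8.92%, 4.68%, 6.37% and 10.3% and higher in 7.64%, 7.6%, 9.55% and 5.13%. Without the stretches beside 18S, the opening 20% was lower in 12.5% and higher in 2.88%. The later portions were then lower in 8.51%, 5.19%, 4.29% and 10.4% and higher in 7.09%, 5.19%, 7.14% and 4.48%. At 2000 treated reads, with the stretches, the opening and the last 20% were lower in 22.8% and 22.9% and higher in 3.51% and 11.4%. The portions between were lower in 12.3%, 4.71% and 6.85% and higher in 17.8%, 10.6% and 15.1%. With the stretches, the median deep difference at 1000 reads was -0.0163 points for the opening 20% and -0.0305 points for the last. Without them it was -0.0219 and -0.0380 points. The difference between portions was not tested, since they share genes and sites. At deep sites, with the stretches, the control library was lower in 14.4% and higher in 2.54% of genes for the opening 20%. For the later portions it was lower in 10.8%, 9.94%, 4.46% and 8.97% and higher in 7.64%, 9.94%, 14.0% and 7.69%. Over all sites, the control library gave 32 genes higher (2.76%) and 44 lower (3.79%) in the opening 20% by the same test. Of the genes called in the treated library, 6 of the 46 higher and 10 of the 28 lower moved the same way in the control.

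**Figure D5:**
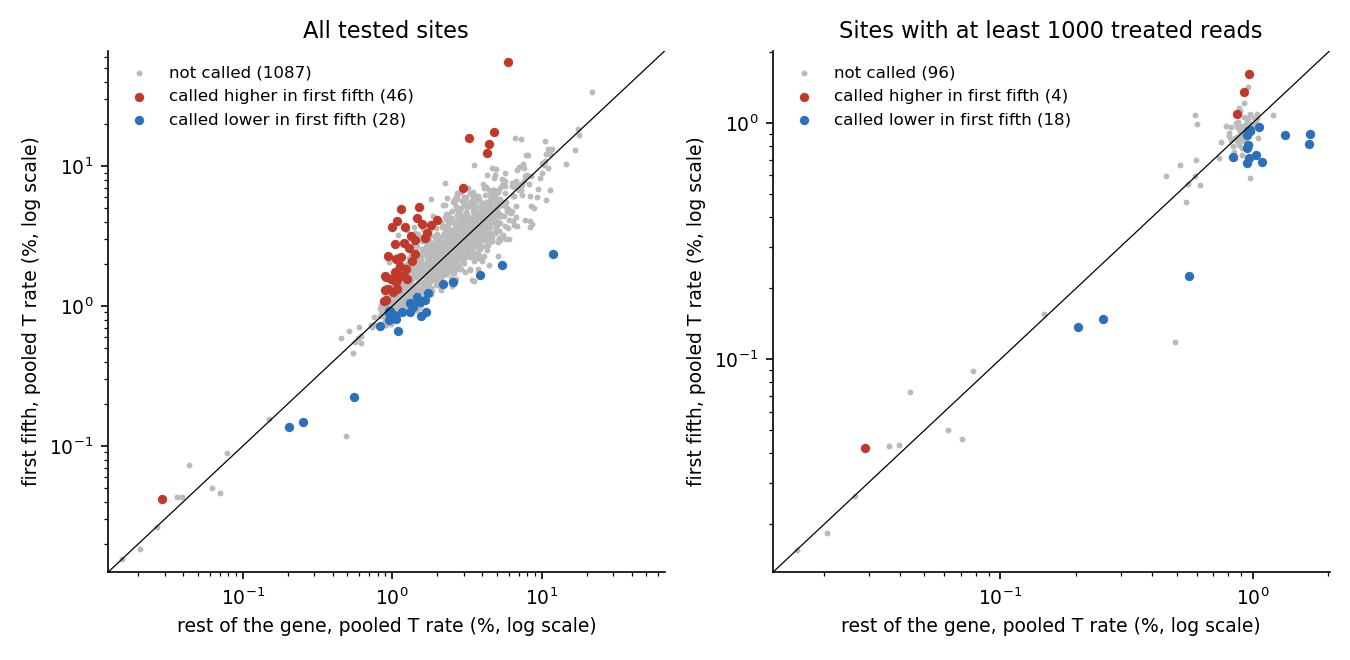
Pooled treated T rate of the opening 20% against that of the rest, 1 point per gene, both axes log scale, with the line of equality. Over all sites (left) 46 genes are called higher and 28 lower; at sites with at least 1000 treated reads (right) 4 are called higher and 18 lower.

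Among genes with at least 3 sites in each portion, 6 per direction had the smallest adjusted p by that Fisher test. AT1G25175 had 2.29% over 6 sites of the opening 20% (69 of 3017 reads) against 0.939% over 29 (adjusted p = 1.19e-07, Fisher's exact test), but its control rate was also higher there, 0.308% against 0.0285%. RPS13A, which encodes a protein of the small cytosolic ribosomal subunit, had 2.80% over 5 sites, which ran from 1.79% to 4.23%, against 1.04% over 72 (adjusted p = 2.03e-06, Fisher's exact test). Its control rates were 0.0354% and 0.0406%. AT2G22990 had 1.73% against 1.07%, AT3G61110 had 2.18% against 1.05% and AT4G09000 had 1.75% against 1.04%. AT1G76490 had 1.29% over 31 sites against 0.900%. All 6 had shallower members than rest sites, with medians of 307 to 542 reads against 620 to 1190, and none had deep sites in both portions. When only the deepest site of each portion was compared, all 6 lost their call, and in AT1G76490 and AT3G61110 the sign also turned, to -0.0579 and -0.0684 points.

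Of the 6 genes called lower with the smallest adjusted p, 4 lie in the stretches beside 18S: AT2G01021 (0.903% against 1.69%), AT2G01020 (0.226% against 0.558%), AT3G06355 (0.136% against 0.203%) and AT3G41979 (0.148% against 0.254%). AT3G41979 lies inside AT3G06355, so these share sites. AT2G01020 runs from base 5782 to 5945 of chromosome 2 and AT2G01021 from 6571 to 6672. Whether the 4 entries are genes of mRNA was not determined, so their calls are not read as results on mRNA. The other two were AT3G27830, with 0.848% over 49 sites against 1.57% over 75 (adjusted p = 2.05e-34, Fisher's exact test), and AT4G01150, with 0.906% over 39 against 1.32% over 57. Each had a site in the rest with many T reads in the control as well: in AT3G27830 that site had 955 of 2795 treated reads and 539 of 5408 control reads (9.97%), and in AT4G01150 277 of 2377 and 223 of 6313 (3.53%). The median site in the opening 20% and in the rest of AT3G27830 was 0.834% and 0.879%. With sites whose control rate was 1% or more left out, the differences were -0.0299 points in AT3G27830 and -0.0797 points in AT4G01150, and neither was called.

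Genes grouped by function gave 103 plus-strand genes in 11 lists, of which 76 had members, 1479 sites in all, and 1463 of these were called, beside 97.1% of all members. Of 75 that could be tested, 6 were higher and 8 lower in the opening 20%, beside 3.96% higher and 2.41% lower among all 1161 genes. Symbols and roles come from general knowledge of Arabidopsis gene codes. Near-identical family members, such as the LHCB1, tubulin, actin and GOX genes, can share reads, and their values are uncertain to that extent.

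Light harvesting and photosystem genes held the most members, 573 sites in 18 of 22 plus-strand genes, all called. Their median rate was 0.896% in the opening 20% and 0.917% in the rest, on 3241 and 4177 reads. By the gene test 4 of 18 were lower and 0 higher. At deep sites 6 of 16 were lower and 0 higher, against 15.3% lower among all genes tested there. The differences were small. LHCB1.3 had 0.921% over 36 members and 0.958% in the rest (adjusted p = 0.00253 at deep sites, Fisher's exact test), and its members ran from 0.399% to 1.23%. Its control rate was lower there as well, 0.0325% against 0.0599% (adjusted p = 1.69e-91, Fisher's exact test). PSBO1, the manganese-stabilising protein of the oxygen-evolving complex, had 0.892% over 79 deep members against 0.948%.

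The other four photosystem genes called lower at deep sites were LHCB1.4 (0.718% against 0.834%, with control rates of 0.0323% and 0.0660% over all sites, also called), LHCB5 (0.933% against 0.978%), PSBR (0.921% against 0.974%) and PSAH2, a photosystem I subunit (0.675% over 7 members against 0.953%). LHCB3 lay the other way without passing, 1.07% against 0.922% (adjusted p = 0.0572, Fisher's exact test). In LHCB4.1, PSAE2, PSAK, PSAL, PSBP1, PSBQ1 and PETC the deep rates were within 0.06 points of each other. No photosystem member exceeded 3.125%, reached in FNR2, which had only 2 members.

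Cytosolic ribosomal protein genes had 115 members in 12 of 16 genes, all called, with a median of 1.4% against 1.13% in the rest, on 546 and 774 reads. By the gene test 3 of 12 were higher and 0 lower, beside 3.96% higher among all genes: RPS13A, given above, RPS18A with 5.15% over 2 members at a median of 136 reads against 1.5% (adjusted p = 0.00283, Fisher's exact test), and RPL28A. RPL28A, of the large subunit, had close median depths in its portions, 1199 and 1204 reads per site, with 1.57% over 7 members and 0.978% in the rest, with 1.61% against 0.965% at deep sites (adjusted p = 0.000415, Fisher's exact test). RPL8A, RPL4A and RPL3A, with the most treated reads of the list in the opening 20%, had 1.11% against 1.03%, 1.36% against 1.13% and 1.35% against 1.08%, and none passed.

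Cytoskeleton genes had 164 members in 9 of 10 genes, of which 159 were called, and 3 genes were lower in the opening 20%, beside 2.41% of all genes. ACT2, a main actin of vegetative tissue, had 0.794% over 27 members, from 0.429% to 1.83%, against 0.949% in the rest (adjusted p = 0.000387, Fisher's exact test). At deep sites it stood at 0.781% against 0.951% and was called again. The beta-tubulin genes TUB2 (1.16% against 1.48%) and TUB3 (1.06% against 1.32%) were called over all sites, but at deep sites they had 0.927% against 0.923% and 0.841% against 0.864% and were not. TUB3 was also lower in the control, 0.0550% against 0.177% (adjusted p = 5.68e-25, Fisher's exact test). One member of TUB2 (AT5G62690) reached 15.1% (71 of 471 reads), with 12.3% in the control (228 of 1861), and was not called. ACT8, a close relative of ACT2, had 1.07% against 1.2%, not called.

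Carbon metabolism gave 1 Calvin cycle gene of 9 and 2 photorespiration genes of 7 called higher, beside 3.96% of all genes, and 0 lower. GAPB, a subunit of chloroplast glyceraldehyde-3-phosphate dehydrogenase, had 1.26% over 30 members against 1.01% (adjusted p = 0.0319, Fisher's exact test). HPR1, peroxisomal hydroxypyruvate reductase, had 1.08% over 20 against 0.881% (adjusted p = 0.0302, Fisher's exact test), but 1.01% against 0.872% at deep sites, not called. GS2, chloroplast glutamine synthetase, rested on 1 member, 3.65% on 219 reads, and was also higher in the control. CP12-1, a small regulator of the Calvin cycle, was lower at deep sites, 0.711% over 7 members against 0.964%. TKL1, GAPA1, GOX1 and GOX2, the other genes of these lists with most reads, were not called.

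Of the remaining lists, 1 gene was called: UBQ10, a polyubiquitin gene, with 0.662% over 8 members against 1.09%, and with control rates of 0.0244% against 0.266%. Its median sites were 0.681% and 0.743%. SAHH1 and ATMS1 of the methionine cycle and THI1, a thiamin thiazole synthase, had 75, 47 and 78 members and differences under 0.05 points. The aquaporins TIP2;1 and PIP2;7 had 0.880% against 0.916% and 0.863% against 0.891%, and TIP1;1 had 1.22% against 0.922%, none called. Translation factor genes had 20 members in 4 genes, led by the poly(A)-binding protein gene PAB2 with 13, with PAB8 and EIFISO4G1 at 3 each, and 0 of 3 testable genes were called. Chaperone genes had 11 members in 3 genes, HSP90.2, HSP90.3 and CPHSC70-1, and glucosinolate and myrosinase genes had 23 in PBP1, MAM1 and CYP79F1. By the gene test 0 of 3 were called in each of these lists. At deep sites the list medians in the opening 20% ran from 0.703% (Calvin cycle) to 1.145% (cytosolic ribosomal proteins), each on 20 sites.

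Genes with members had higher mRNA levels than other plus-strand genes. Their median was 12.48 and 12.52 RPKM in the 2 mRNA libraries, against 5.41 and 5.38 RPKM for the 2334 genes with sites beyond the opening 20% only and 1.3 and 1.35 RPKM for the 6796 with no listed site. The share of genes with a member rose from 0.852% (9 of 1057) in the lowest of 10 equal classes of mRNA level to 53.3% (563 of 1057) in the highest. Median spans were 2411, 2540 and 2092 bases. A listed site needs reads, so this order also follows depth, whose part was not tested. The deposited translation efficiency, the natural log of ribosome-bound over total mRNA, had medians of 0.790, 0.837 and 0.656 in these classes, with wide overlap (quartiles 0.278 and 1.37 for genes with members), and the length by which the authors divided the ribosome-bound reads is not given.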

How the data were processed

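The authors deposited a table of C-to-T sites with counts of T reads and of reads per library, their p-value and adjusted p-value. They also deposited RPKM values of mRNA and ribosome-bound mRNA with translation efficiency as a natural log. Per the submitters' processing notes, STAR 2.5.3a and SAMtools were used with TAIR10; the site caller and its listing rule are not given in the sources used here. The column headed C was read as total depth: on that reading a 2-proportion test gives the deposited p-value at 100% of 51897 sites (relative tolerance 0.001).

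Two-sided Fisher's exact tests were run on sites where each library had 10 or more reads (Benjamini-Hochberg, threshold 0.05; Python 3.11.15, scipy 1.17.1, numpy 2.4.6, pandas 2.3.3, figures with matplotlib 3.10.9). Intervals are 95% Clopper-Pearson intervals, and a count of 0 allows 3 counts; reads carry no molecular identifiers, so both cover counting error only. On simulated data, the site test over 66873 sites called 45% and 88% of 200 sites raised by 1 and 3 points (0 and 2 unchanged sites called). The gene test over 1161 genes called 49.5% and 95% of 200 genes raised 2-fold and 4-fold (2 and 7 unchanged genes called). Simulated counts were independent between sites, with 1 base rate for all sites or per gene and no listing floor. They therefore do not give the error of either test on the listed sites.

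The members and gene lists were chosen with earlier results of these data known. Named were the 12 called members with the largest difference at 50 or more reads, the 6 deepest members (both 1 per gene), up to 3 genes per list with most treated reads in the opening 20%, and 6 genes per direction with the smallest adjusted p among those with 3 or more sites in each portion. The highest member, list genes called in a test, the list genes set beside them (ACT8, LHCB3 and the photosystem genes near equality) and the stretches beside 18S were named after their values were seen. Alternatives covered coverage, the deposited adjusted p, size of difference, depth, the deepest site, control rate, overlapping genes, the first 10% and those stretches. Sequence context was not analysed here.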

Additional observations from a re-analysis of the deposited data

How the results depend on the processing

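No paired analysis was possible because the site results come from 1 treated and 1 control library, and the mRNA and ribosome-bound values were described with no test. The counts of called sites stayed within 1.5 times under 50 or 200 reads, the deposited adjusted p, no overlapping genes and no stretches beside 18S. Requiring 1 point above control left 4875 called members and 17861 sites of the rest, and the first 10% of genes held 1687 called sites against 19619 in the rest of its genes. The counts of genes called in the treated library (74, of which 46 higher and 28 lower) were 22 (4 and 18) at 1000 treated reads, 15 (2 and 13) at 2000, 14 (11 and 3) with the deepest site of each portion, 46 (33 and 13) with the first 10%, and 115 with the portion from 60% to 80%. Without the stretches and at 1000 reads they were 16 (3 and 13). In the control (76, of which 32 and 44) there were 20 (3 and 17) at 1000 treated reads and 12 (3 and 9) at 2000. The deepest site gave 19 (14 and 5) and the first 10% gave 21 (14 and 7). Without the stretches the control count was 72 (30 and 42), and without them at 1000 reads 18 (3 and 15). With control rates under 1% it was 18 (10 and 8). The difference of median rates, opening 20% minus rest, was 0.159 points, -0.0281 at 1000 reads, 0.176 without the stretches and -0.0106 with both. AT1G76490 and AT3G61110 turned to -0.0579 and -0.0684 with the deepest site, and AT4G01150 to 1.055 with the first 10% (adjusted p = 0.300, Fisher's exact test). Of 109 values of named sites and genes that were called, over all alternatives, 93 kept call and direction, 13 lost the call without turning and 3, given above, lost it and turned. Choices naming 2000 reads, other portions of 20% and the stretches were made after seeing the data. The cause of these shifts was not tested. Depth limits the shallow sites: 50 reads with 5 T reads already give 10%, and no library is replicated.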
